A study of Homo sapiens with 12 samples.

Results

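The genes described here build the machinery that copies DNA in S phase, together with the E2F transcription factors that switch that machinery on. The members were taken from a list of 54 gene symbols covering origin licensing, replication forks, nucleotide supply and E2F-driven S-phase genes, and all 54 were found among the 17013 genes of the table by their Ensembl identifiers. They were split by role into 11 licensing genes, 9 genes of helicase activation and origin firing, 15 polymerase and fork genes, 4 nucleotide supply genes, 7 genes of chromatin on new DNA and histone mRNA, and 8 E2F factors and S-phase regulators.

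Their mRNA was measured by poly(A) mRNA-seq in HCC1806, a human triple-negative breast cancer cell line with basal features. Cells were transfected with a non-targeting control siRNA (siNT) or with a pool of siRNAs against the kinase MLK4 (siMLK4), and then received DMSO vehicle or 1 μM doxorubicin, a topoisomerase II poison, for 24 h. There were 3 libraries in each of the 4 groups, 12 in all. The vehicle libraries carry a time label of 0 h in their titles beside the DMSO label. A figure legend of the paper gives 24 h for DMSO and doxorubicin alike, and its methods describe the cells without drug as untreated. If the vehicle cells were collected at 0 h, an effect of doxorubicin and of time in culture cannot be told apart. The libraries held 16759025 to 19302248 reads on the listed genes, and no member fell below 125 reads in any library, so all 54 passed the filter of 10 reads in every library. Levels below are normalized reads, which are reads divided by the size factor of the library.

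In G1, the retinoblastoma protein holds E2F factors inactive. Cyclin E with its kinase CDK2 releases them, and E2F1 and E2F2 then raise the mRNA of cyclin E, of replication factors and of the repressors E2F7 and E2F8, which later close the programme. Origins are licensed when ORC, CDC6 and CDT1 load the MCM helicase, and they fire when CDC45 and the GINS complex join that helicase under the kinases CDC7-DBF4 and CDK2.

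The knock-down and the cell line were checked first. In siNT cells *MAP3K21*, which encodes MLK4, was at 553, 670 and 674 normalized reads with vehicle and at 758, 856 and 772 with doxorubicin. The siMLK4 libraries were at 103, 94.7 and 88.7 with vehicle and 113, 138 and 94.3 with doxorubicin, below every siNT library. The pool was set against 1 control siRNA, so an effect of MLK4 loss and an off-target effect of the pool cannot be told apart. The basal and epithelial markers KRT5 and EPCAM were at 20878 ± 3207 and 13823 ± 2874 normalized reads (SD, n = 3) in siNT vehicle cells. The progesterone receptor gene PGR had no read in any of the 6 vehicle libraries, and ESR1 was at 92.7 ± 18.0 in siNT vehicle cells. ERBB2, the gene of HER2, was not low, at 1459 ± 171 in siNT and 1893 ± 121 in siMLK4 vehicle cells. Of the basal list of 8 genes, 5 fell with doxorubicin in each siRNA background (median log2 fold change −1.25 in both), and 2 and 3 fell with the knock-down in vehicle and in doxorubicin. With doxorubicin these were 62.5% of the list in each background, beside 10.6% of all genes called lower. With the knock-down they were 25% and 37.5%, beside 3.14% and 2.93% of all genes. Of 3 genes for hormone receptors and HER2, 1 rose in siNT cells, and 1 rose and 1 fell in siMLK4 cells. A single gene is 33.3% of that list, beside 12.1% and 12.6% of all genes called higher and 10.6% lower. Of other cell types, 5 of 11 marker genes were in the table. PTPRC and VWF, markers of immune and endothelial cells, were at 5.48 ± 2.83 and 25.1 ± 11.2 normalized reads in siNT vehicle cells. COL1A1, a collagen gene and the most abundant of the 5, was at 286 ± 30 in siNT and 529 ± 43 in siMLK4 vehicle cells. PTPRC was called higher with doxorubicin in siMLK4 cells (0.84 ± 0.14, SE) and the fibroblast marker COL1A1 with the knock-down in vehicle (0.78 ± 0.12), and these 5 genes had no other call in the 4 comparisons of groups. The part of these changes in the values below was not tested.

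Promoter sequences are shown first because the members were chosen partly as E2F targets. The RefSeq promoter table (GRCh38.p14, 250 bases before to 50 after each start) matched 48 of the 54 members, and the 6 that were not matched are GINS4, E2F8, MCM4, CCNE2, MCM5 and ATAD2. The 8-base E2F words TTTGGCGC, TTTCGCGC, TTTCCCGC and TTTGCCGC were searched on both strands, where words in a palindrome overlap. Below, 60-base windows around a word are given 5′ to 3′ on the strand of the gene, with the words in capitals. The first 4 genes had the higher mean with doxorubicin in both siRNA backgrounds, and the last 3 had the lower mean in both.
E2F1 (chr20:33686385-33686444, minus strand): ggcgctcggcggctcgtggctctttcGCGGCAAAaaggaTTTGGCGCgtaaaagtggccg
E2F2 (chr1:23531242-23531301, minus strand): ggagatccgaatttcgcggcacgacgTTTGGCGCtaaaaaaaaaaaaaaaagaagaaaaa
CDC25A (chr3:48188428-48188487, minus strand): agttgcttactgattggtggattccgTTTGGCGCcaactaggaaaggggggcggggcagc
DTL (chr1:212035714-212035773, plus strand): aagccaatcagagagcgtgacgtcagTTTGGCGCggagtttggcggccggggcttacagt
GINS1 (chr20:25407652-25407711, plus strand): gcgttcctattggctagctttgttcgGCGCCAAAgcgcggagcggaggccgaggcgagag
MCM2 (chr3:127598387-127598446, plus strand): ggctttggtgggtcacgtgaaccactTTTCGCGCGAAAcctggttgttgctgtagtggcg
TIPIN (chr15:66356718-66356777, minus strand): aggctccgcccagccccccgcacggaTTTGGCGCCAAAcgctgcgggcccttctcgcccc

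An E2F word was present in 26 of the 48 member promoters (54.2%), against 6.18% of 11982 other genes of the table and 3.99% of all 27305 genes with a promoter. The box bound by NF-Y (CCAAT, both strands) was present in 60.4% of member promoters, 42.76% of the other genes and 39.72% of all genes. The cell cycle homology motif (TTTGAA, both strands), a mark of many mitotic promoters, was present in 8.3% of member promoters and in 13.74% of the other genes. Genes with the same word differed in direction. The windows of E2F2 and of TIPIN both hold TTTGGCGC, and these 2 genes rose and fell with doxorubicin, as given below. Among the members with a matched promoter, the median log2 fold change with doxorubicin in siNT cells was 0.10 for the 26 with an E2F word and 0.06 for the 22 without, which include ASF1B and CCNE1. In siMLK4 cells these medians were 0.24 and 0.21. A word is a match of letters and not a measured binding site.

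**Figure D1:**
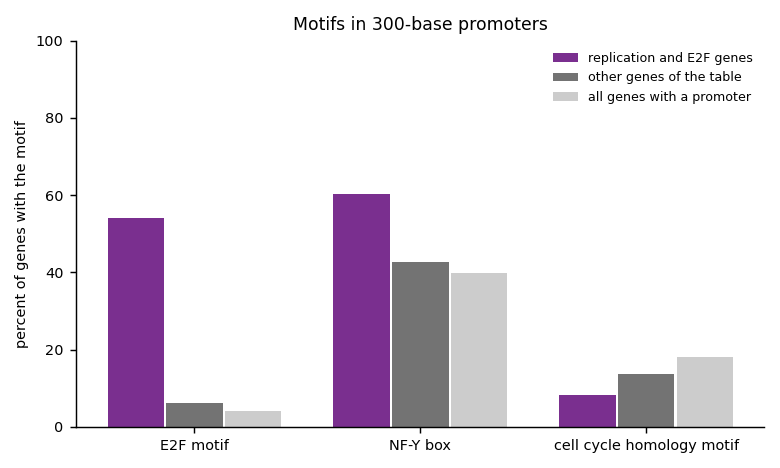
Percent of genes whose 300-base RefSeq promoter holds each motif on either strand (y axis), for the 48 matched replication and E2F genes, the other genes of the table and all genes with a promoter. The E2F bars stand at 54.2%, 6.18% and 3.99%.

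The first comparison asks how these genes respond to doxorubicin when MLK4 is intact. In siNT cells 9 members rose and 1 fell by the call rule used throughout, an adjusted p below 0.01 with a log2 fold change beyond 0.75 in size. ASF1B, GINS4, E2F2, CCNE1, GINS3, ATAD2, E2F1, CCNE2 and DTL rose, and TIPIN fell. Of all genes, 12.1% were called higher and 10.6% lower, beside 16.7% and 1.85% of members. The share called higher was near that of all genes. With log2(normalized reads + 1), 3192 of 17013 genes and 10 of 54 members were called higher, and with limma-voom 3067 and 10. On those scales the members were not clearly above all genes. At an adjusted p under 0.05 with no fold threshold, 21 members were higher and 9 lower, 55.6% of the members beside 57.3% of all genes. The median member moved by 0.14, with quartiles of −0.23 and 0.60, and the median of all genes by 0. The libraries are bulk, so that a larger share of cells in S phase and more RNA per cell cannot be told apart. The members together took 0.490 ± 0.023% of the reads in siNT vehicle cells and 0.703 ± 0.032% with doxorubicin (SD, n = 3). The lowest doxorubicin library, at 0.671%, lay above the highest vehicle library, at 0.514%. In normalized reads the members together had 100551, 102621 and 95242 with vehicle and 119462, 125310 and 117438 with doxorubicin. This rise was smaller in proportion than that of the share of reads. ATAD2 had the highest mean of the members over the 12 libraries, and without it the lowest doxorubicin and the highest vehicle share were 0.587% and 0.471%.

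These counts depend on how libraries are scaled. When libraries were scaled by their total reads, the median of all genes in siNT cells was 0.18, 16 members were called higher and none lower, and the higher share of all called genes went from 53.4% to 72.3% (63.6% with upper-quartile scaling). Of all 17013 genes, 2859 were then called higher and 1094 lower, in place of 2060 and 1799. The median member then lay 0.20 above that of all genes, against 0.14 with the size factors. At an adjusted p under 0.05 with no fold threshold, 27 members were higher and 4 lower with library totals, in place of 21 and 9. With upper-quartile scaling these counts were 25 and 6. The number of members lower at that threshold alone therefore depended on the scaling.

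**Figure D2:**
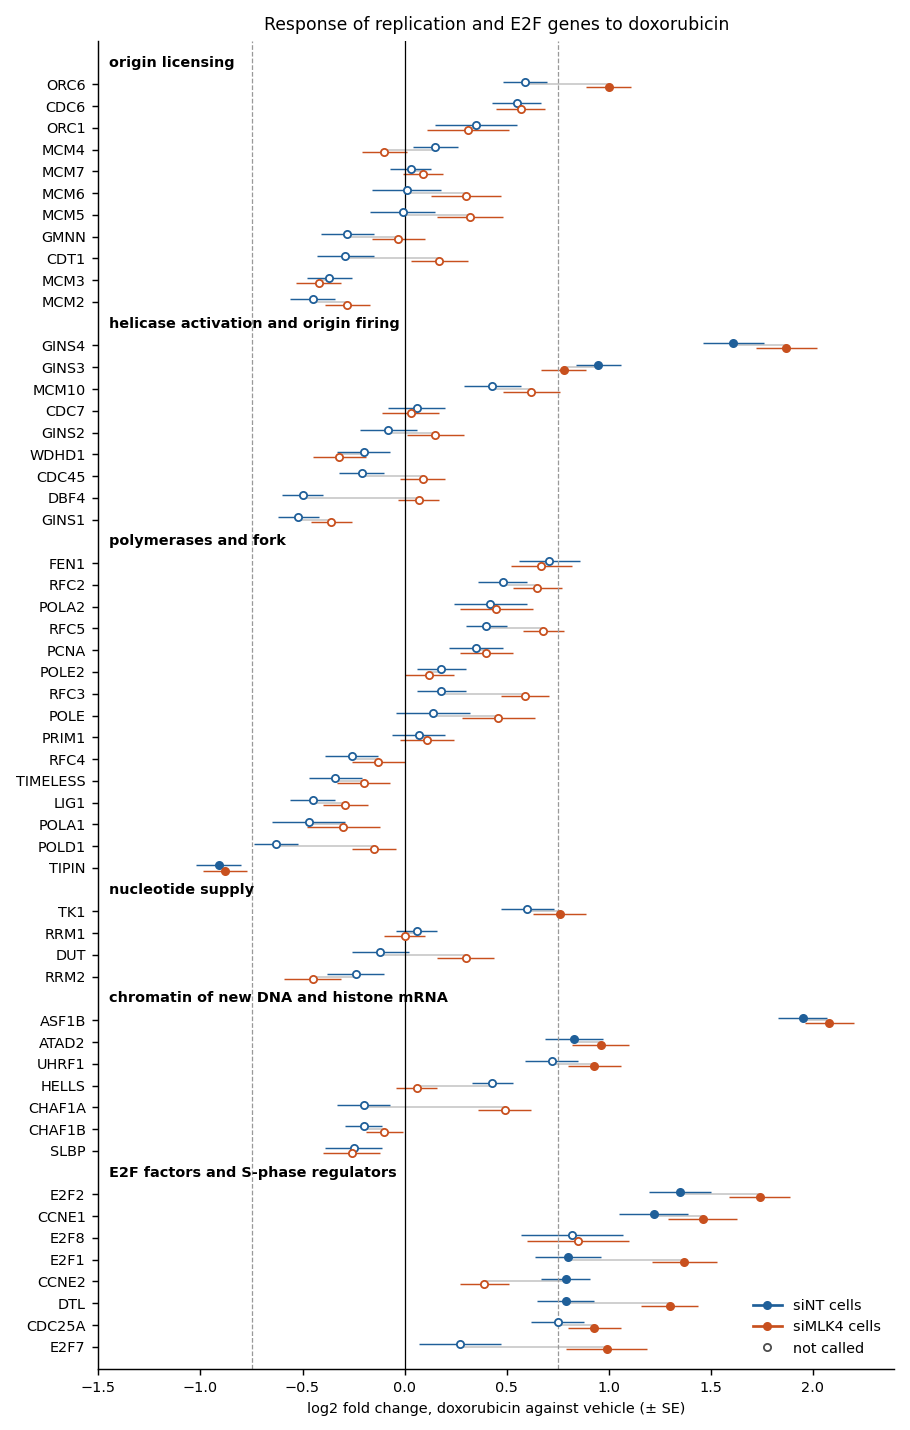
Log2 fold change of each of the 54 members with doxorubicin against vehicle (x axis, ± SE), in siNT cells (blue) and siMLK4 cells (orange), by role. Filled points passed the call rule and dashed lines mark the fold threshold of 0.75. The E2F factors and S-phase regulators lie to the right of 0 in both backgrounds, while the licensing genes lie on both sides.

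Among the 8 E2F factors and S-phase regulators, 5 rose in siNT cells and none fell, with a median log2 fold change of 0.79. The share called higher was 62.5%, where 12.1% of all genes were called higher and 10.6% lower. E2F2 (ENSG00000007968, chr1:23506438-23531233), an activating E2F, was at 365, 457 and 355 normalized reads with vehicle and at 1173, 1208 and 869 with doxorubicin. Its groups did not overlap, and the lowest doxorubicin library was well above the highest vehicle library. On the log2 scale E2F2 rose by 1.35 ± 0.15 (SE; limma, adjusted p = 5.5e-06). E2F1 (ENSG00000101412, chr20:33675477-33686385), the founding activator of the family, had 725, 559 and 475 normalized reads with vehicle and 1263, 1045 and 862 with doxorubicin. The groups did not overlap, but the third doxorubicin library was close to the first vehicle library. Its log2 fold change was 0.80 ± 0.16 (adjusted p = 7.5e-04), and it fell to 0.67 and under the fold threshold without vehicle library 3 or without doxorubicin library 1.

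The cyclins E bind CDK2 at the entry into S phase. CCNE1 (ENSG00000105173, chr19:29811991-29824312) had 1379, 1427 and 1166 normalized reads with vehicle and 3397, 3698 and 2471 with doxorubicin, with the groups apart. Its log2 fold change was 1.22 ± 0.17 (adjusted p = 3.7e-05). CCNE2 (ENSG00000175305) had 369.9, 509.7 and 440.1 normalized reads with vehicle and 781, 828 and 768 with doxorubicin. All 3 doxorubicin libraries were above all 3 vehicle libraries. The log2 fold change of CCNE2 was 0.79 ± 0.12 (adjusted p = 9.2e-05), and the call was lost without vehicle library 1, where the fold change was 0.68. Of the 50-base stretches in the CCNE2 transcripts 35.2% also occur in other genes, with 0% on the same strand. INTS8 shared the most stretches, and the authors' counting used strand.

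DTL, the substrate receptor that sends CDT1 for destruction in S phase, rose by 0.79 ± 0.14 (adjusted p = 2.4e-04), a call lost without vehicle library 1 or doxorubicin library 2. CDC25A, the phosphatase that activates CDK2, moved by 0.75 ± 0.13 (adjusted p = 1.8e-04) and lay just under the fold threshold. Its values were 665.8, 810.8 and 688.2 normalized reads with vehicle and 1176, 1282 and 1278 with doxorubicin, so its groups were apart all the same. The repressor E2F8 moved by 0.82 ± 0.25 (adjusted p = 0.013) and E2F7 by 0.27 ± 0.20 (adjusted p = 0.27), and neither passed.

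Among the 7 chromatin genes, 2 rose and none fell, which is 28.6% beside 12.1% of all genes called higher and 0 beside 10.6% called lower. ASF1B (ENSG00000105011, chr19:14119512-14136613), a chaperone that hands histones H3 and H4 to new DNA, had 760.9, 928.1 and 804.9 normalized reads with vehicle and 3850.1, 3316 and 2949 with doxorubicin. Each doxorubicin library was over the highest vehicle library by a wide margin, and the mean was 4.06 times higher. This was the largest change of any member, at 1.95 ± 0.12 on the log2 scale (adjusted p = 4.2e-08). ATAD2, a bromodomain ATPase found on newly replicated chromatin, rose by 0.83 ± 0.14 (adjusted p = 2.2e-04), a call lost without doxorubicin library 2. UHRF1, which recruits the maintenance methyltransferase to hemimethylated DNA, moved by 0.72 ± 0.13 and HELLS, a chromatin remodeller, by 0.43 ± 0.10, both under the fold threshold. The CAF-1 subunits CHAF1A and CHAF1B stood at −0.20 ± 0.13 and −0.20 ± 0.09, and SLBP, which binds the stem-loop of histone mRNA, at −0.25 ± 0.14. None of the last 3 passed at an adjusted p under 0.05.

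Helicase activation split within a complex. GINS4 (ENSG00000147536), a subunit of the 4-part GINS complex, had 515.5, 670.7 and 516.4 normalized reads with vehicle and 1968, 1903 and 1648 with doxorubicin. Its groups were far apart, with a log2 fold change of 1.61 ± 0.15 (adjusted p = 8.8e-07). GINS3 also rose, by 0.95 ± 0.11 (adjusted p = 5.9e-06). The partner GINS2 stood at −0.08 ± 0.14, and GINS1 was lower by adjusted p alone, at −0.52 ± 0.10 (adjusted p = 5.9e-04). GINS1 had 1461, 1583 and 1336 normalized reads with vehicle and 999.4, 948.7 and 1048 with doxorubicin, groups that did not overlap in the direction opposite to GINS4. A difference between subunits was read from these values side by side and was not tested. DBF4, the activator of CDC7, stood at −0.50 ± 0.10, CDC7 itself at 0.06 ± 0.14 and MCM10 at 0.43 ± 0.14.

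No licensing gene was called among 11 in siNT cells, and their median was 0.01. Of all genes 12.1% were called higher and 10.6% lower. The helicase subunits MCM4, MCM5, MCM6 and MCM7 lay between −0.01 and 0.15. MCM2 and MCM3 were lower at an adjusted p under 0.05, at −0.45 ± 0.11 and −0.37 ± 0.11. MCM2 had 2316, 2375 and 2033 normalized reads with vehicle and 1587, 1653 and 1645 with doxorubicin. Its 2 groups did not overlap. ORC6, a subunit of the origin recognition complex, and CDC6, the loader of the helicase, were higher at 0.59 ± 0.11 and 0.55 ± 0.12, under the fold threshold. CDT1 and its inhibitor GMNN stood at −0.29 ± 0.14 and −0.28 ± 0.13 and did not pass.

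Of the 15 polymerase and fork genes TIPIN alone was called. This is 6.67% called lower and 0% called higher, under the 10.6% and 12.1% of all genes. TIPIN (ENSG00000075131, chr15:66336191-66386746), which with TIMELESS holds the fork together and supports the checkpoint, had 548, 468 and 469 normalized reads with vehicle and 239.9, 217.8 and 262.6 with doxorubicin. All doxorubicin libraries lay below all vehicle libraries. The log2 fold change was −0.91 ± 0.11 (adjusted p = 1.2e-05), and −0.70 with library totals, under the fold threshold. Of its 50-base stretches 20.4% also occur on the same strand in other genes, so that the split of those reads is uncertain. Counted over both strands, the pseudogene RPL9P25 shared the most stretches with TIPIN. The fork partner of TIPIN, TIMELESS, stood at −0.34 ± 0.13 (limma, adjusted p = 0.039, and 0.057 with the replicate number as a block). Of the catalytic subunits of the polymerases, POLD1 was lower at −0.63 ± 0.11 and POLA1 at −0.47 ± 0.18, while POLE stood at 0.14 ± 0.18. A difference between these genes was not tested. The clamp PCNA and the flap nuclease FEN1 were higher at 0.35 ± 0.13 and 0.71 ± 0.15, and the ligase LIG1 was lower at −0.45 ± 0.11. Of the clamp loader subunits among the members, RFC2 and RFC5 were higher at 0.48 ± 0.12 and 0.40 ± 0.10. RFC3 and RFC4 stood at 0.18 ± 0.12 and −0.26 ± 0.13, and neither passed at an adjusted p under 0.05.

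No nucleotide supply gene was called among 4 in siNT cells, beside 12.1% of all genes called higher and 10.6% lower. TK1, the salvage kinase for thymidine, was at 0.60 ± 0.13 (adjusted p = 0.0014). The ribonucleotide reductase subunits RRM1 and RRM2 stood at 0.06 ± 0.10 and −0.24 ± 0.14 and the dUTPase gene DUT at −0.12 ± 0.14, and none of these 3 passed. Per length, on a transcripts-per-million scale made from the recovered reads, PCNA and TK1 led the members in siNT vehicle cells at 569 and 470 (means of 3 libraries), and POLA2 was the lowest at 3.10. E2F2 went from place 52 of 54 in siNT vehicle cells to place 40 with doxorubicin.

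**Figure D3:**
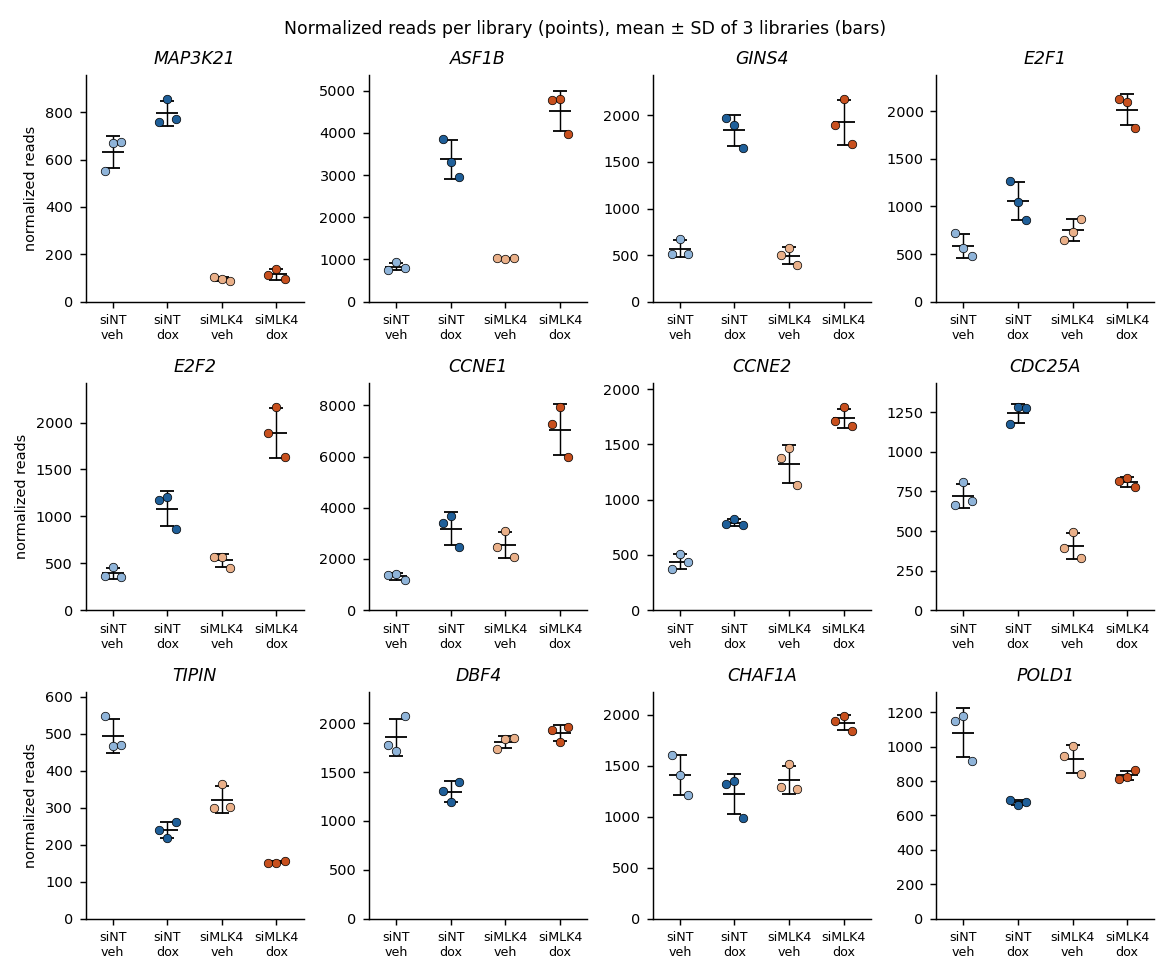
Normalized reads (y axis, from 0) in each of the 12 libraries for the MLK4 gene MAP3K21 and the 11 members chosen by the rule for library values, with the mean ± SD of 3 libraries as bars. The vehicle and doxorubicin libraries of ASF1B, GINS4, E2F1, E2F2, CCNE1, CCNE2, CDC25A and TIPIN do not overlap in either siRNA background, and the siNT and siMLK4 libraries of ASF1B, CCNE1, CCNE2, CDC25A and TIPIN do not overlap under either treatment.

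The same response was then measured after MLK4 knock-down. In siMLK4 cells 13 members rose and 1 fell with doxorubicin (24.1% and 1.85%), beside 12.6% of all genes called higher and 10.6% lower. At an adjusted p under 0.05 there were 25 higher and 7 lower, 59.3% beside 57.9% of all genes, with a median of 0.31 beside 0.02. With library totals the median of all genes was 0.16, 20 members were called higher and none lower, and the higher share of all called genes went from 54.4% to 69.3%. Of all 17013 genes, 2897 were then called higher and 1281 lower, in place of 2147 and 1802. At an adjusted p under 0.05, library totals gave 31 members higher and 1 lower, in place of 25 and 7. The members took 0.536 ± 0.056% of reads in siMLK4 vehicle cells and 0.828 ± 0.029% with doxorubicin (SD, n = 3), without overlap between the groups. In normalized reads they had 100355, 105915 and 88993 with vehicle and 134988, 136309 and 130139 with doxorubicin. Vehicle library 3 of siMLK4 had the lowest value of its group for 36 of the 54 members, and library 2 the highest for 31. The 9 members called in the same direction as in siNT cells were ASF1B, ATAD2, CCNE1, DTL, E2F1, E2F2, GINS3, GINS4 and TIPIN. Another 5, CDC25A, E2F7, ORC6, TK1 and UHRF1, passed in siMLK4 cells and missed in siNT cells, and CCNE2 did the reverse. No difference between the 2 responses passed for these genes. The adjusted p-values (limma) were 0.72, 0.25, 0.22, 0.77 and 0.69 in that order, and 0.30 for CCNE2. With library totals CDC25A, ORC6, TK1 and UHRF1 were called in siNT cells too. By role, 6 of the 8 E2F factors and S-phase regulators rose (median 1.14), as did 3 of 7 chromatin genes (0.49), 2 of 9 helicase activation genes (0.09), 1 of 11 licensing genes (0.17) and 1 of 4 nucleotide supply genes (0.15), and 1 of 15 polymerase and fork genes fell (0.12). In that order the shares called higher were 75%, 42.9%, 22.2%, 9.09% and 25%, and the share called lower was 6.67%.

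In siMLK4 cells E2F2 was at 571.1, 570.9 and 447.6 normalized reads with vehicle and at 1889, 2161 and 1628 with doxorubicin. This was a log2 fold change of 1.74 ± 0.15 (adjusted p = 6.8e-07), with the groups apart. E2F1 had 650.2, 731.4 and 871.4 with vehicle and 2130.1, 2096 and 1829 with doxorubicin. Here the separation was wide, unlike in siNT cells, and the log2 fold change was 1.37 ± 0.16 (adjusted p = 8.2e-06). ASF1B had 1034, 1021 and 1024 with vehicle and 4772, 4807 and 3968 with doxorubicin, and GINS4 had 506, 580 and 394 and then 1902, 2178 and 1696. Both genes again had the largest changes, at 2.08 ± 0.12 (adjusted p = 3.8e-08) and 1.87 ± 0.15 (adjusted p = 3.1e-07).

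CCNE1 had 2457, 3102 and 2084 normalized reads with vehicle and 7263, 7924 and 5973 with doxorubicin, the highest values of this gene in the experiment, and its log2 fold change was 1.46 ± 0.17 (adjusted p = 7.8e-06). TIPIN had 299, 365 and 303 with vehicle and 150.9, 150.9 and 155.1 with doxorubicin, its lowest values. Its log2 fold change was −0.88 ± 0.11 (adjusted p = 1.6e-05), and −0.73 with library totals, under the fold threshold. CDC25A rose by 0.93 ± 0.13 and ORC6 by 1.00 ± 0.11. E2F7, a repressor, rose by 0.99 ± 0.20, TK1 by 0.76 ± 0.13, UHRF1 by 0.93 ± 0.13, GINS3 by 0.78 ± 0.11, ATAD2 by 0.96 ± 0.14 and DTL by 1.30 ± 0.14. Of the 50-base stretches of UHRF1 21.1% also occur on the same strand in other genes, so that the split of those reads is uncertain. Counted over both strands, ENSG00000256663 shared the most stretches with UHRF1. The calls of TK1 and GINS3 were lost without doxorubicin library 1, TK1 also without vehicle library 1 and GINS3 also without vehicle library 3. CCNE2 stood at 0.39 ± 0.12 (adjusted p = 0.014). Of the DNA polymerase and MCM genes that were lower in siNT cells, POLD1 stood at −0.15 ± 0.11, POLA1 at −0.30 ± 0.18, MCM2 at −0.28 ± 0.11 and MCM3 at −0.42 ± 0.11.

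**Figure D4:**
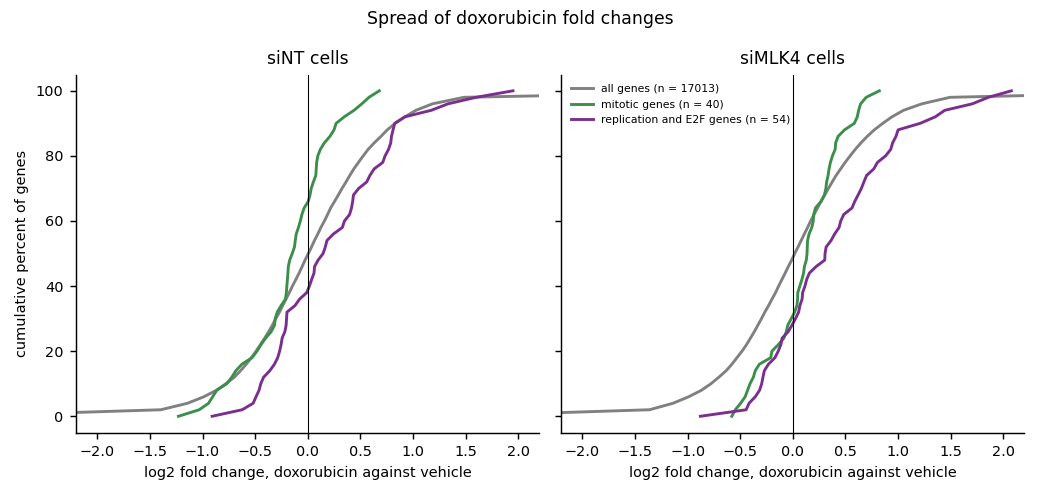
Cumulative percent of genes (y axis) by log2 fold change with doxorubicin (x axis, drawn from −2.2 to 2.2, which leaves out the tails of all genes) in siNT and siMLK4 cells. The 54 replication and E2F genes have medians of 0.14 and 0.31, the 40 mitotic genes −0.15 and 0.13, and all 17013 genes 0 and 0.02.

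Whether the 2 doxorubicin responses differ is asked by the interaction, the response in siMLK4 cells minus that in siNT cells. No member passed the call rule in limma, and none reached an adjusted p under 0.05, while 12 of 54 were under an unadjusted p of 0.05. Of all genes 14.5% were under that unadjusted p, 0.0999% were called higher, 0.176% were called lower and 1.20% reached an adjusted p under 0.05. No member was called under any of the other settings, limma-voom on the recovered reads included. The interaction was above 0 for 41 members and below 0 for 13, with a median of 0.16 beside 0.01 for all genes. The quartiles were 0.02 and 0.30 for the members and −0.17 and 0.19 for all genes. Both responses enter each of these values, and members share the same 12 libraries, so that the 41 are not separate observations. Lists of related genes described below had median interactions above 0 too. These were 0.28 for mitotic genes, 0.20 for the RB pathway and E2F regulators, 0.19 for recombination and checkpoint genes and 0.13 for other replication genes. The shift was thus not particular to the members.

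The members with the smallest p were DBF4, CHAF1A and POLD1. DBF4 (ENSG00000006634, chr7:87876216-87909553) had 1777, 1719 and 2074 normalized reads in siNT vehicle cells, 1303, 1191 and 1401 in siNT cells with doxorubicin, 1739, 1835 and 1852 in siMLK4 vehicle cells and 1926, 1807 and 1960 with both. The siNT doxorubicin libraries were the 3 lowest of the 12. Its interaction was 0.56 ± 0.14 (limma, unadjusted p = 0.0016, adjusted p = 0.075). Of its 50-base stretches 14.8% also occur on the same strand in other genes. Counted over both strands, DBF4P1 shared the most stretches with DBF4. CHAF1A (ENSG00000167670, chr19:4402640-4445018) had 1610, 1410 and 1214 normalized reads in siNT vehicle cells, 1322, 1347 and 993 with doxorubicin, 1292, 1516 and 1273 in siMLK4 vehicle cells and 1938, 1990 and 1844 with both. The siMLK4 doxorubicin libraries were the 3 highest. Its interaction was 0.69 ± 0.19 (adjusted p = 0.088). POLD1 (ENSG00000062822, chr19:50384204-50418018) had 1148, 1178 and 918 in siNT vehicle cells, 691, 660 and 677 with doxorubicin, 946, 1002 and 841 in siMLK4 vehicle cells and 810, 822 and 865 with both. In siMLK4 cells its groups overlapped, and in siNT cells they did not. Its interaction was 0.48 ± 0.16 (adjusted p = 0.15). The differences for E2F7 (0.72 ± 0.29), E2F1 (0.57 ± 0.23), DTL (0.51 ± 0.19) and CCNE2 (−0.40 ± 0.17) had adjusted p-values of 0.25, 0.25, 0.23 and 0.30.

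The effect of the knock-down itself was compared without and with drug. With vehicle, CCNE1 and CCNE2 rose and CDC25A fell in siMLK4 cells, 3.70% and 1.85% of the members beside 2.51% of all genes called higher and 3.14% lower. With doxorubicin CCNE1, CCNE2, E2F1 and E2F2 rose and none fell, 7.41% of the members beside 2.66% called higher and 2.93% lower. At an adjusted p under 0.05, 3 members were higher and 8 lower with vehicle (20.4% beside 25.8% of all genes), and 11 were higher and 6 lower with doxorubicin (31.5% beside 24.8%). The balance with vehicle depended on the scaling, with 6 higher and 4 lower under library totals and 5 and 5 under upper-quartile scaling. With doxorubicin these counts were 13 and 4, and 11 and 7. All called members were E2F factors and S-phase regulators, whose medians were 0.37 and 0.67. The medians of all members were −0.11 and 0.06 beside 0.01 and 0.02 for all genes. With library totals the medians of all genes were 0.11 and 0.09 and those of the members 0.02 and 0.14, and the higher share of all called genes went from 44.4% to 64.7% with vehicle (57.5% with upper-quartile scaling) and from 47.6% to 61.2% with doxorubicin.

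**Figure D5:**
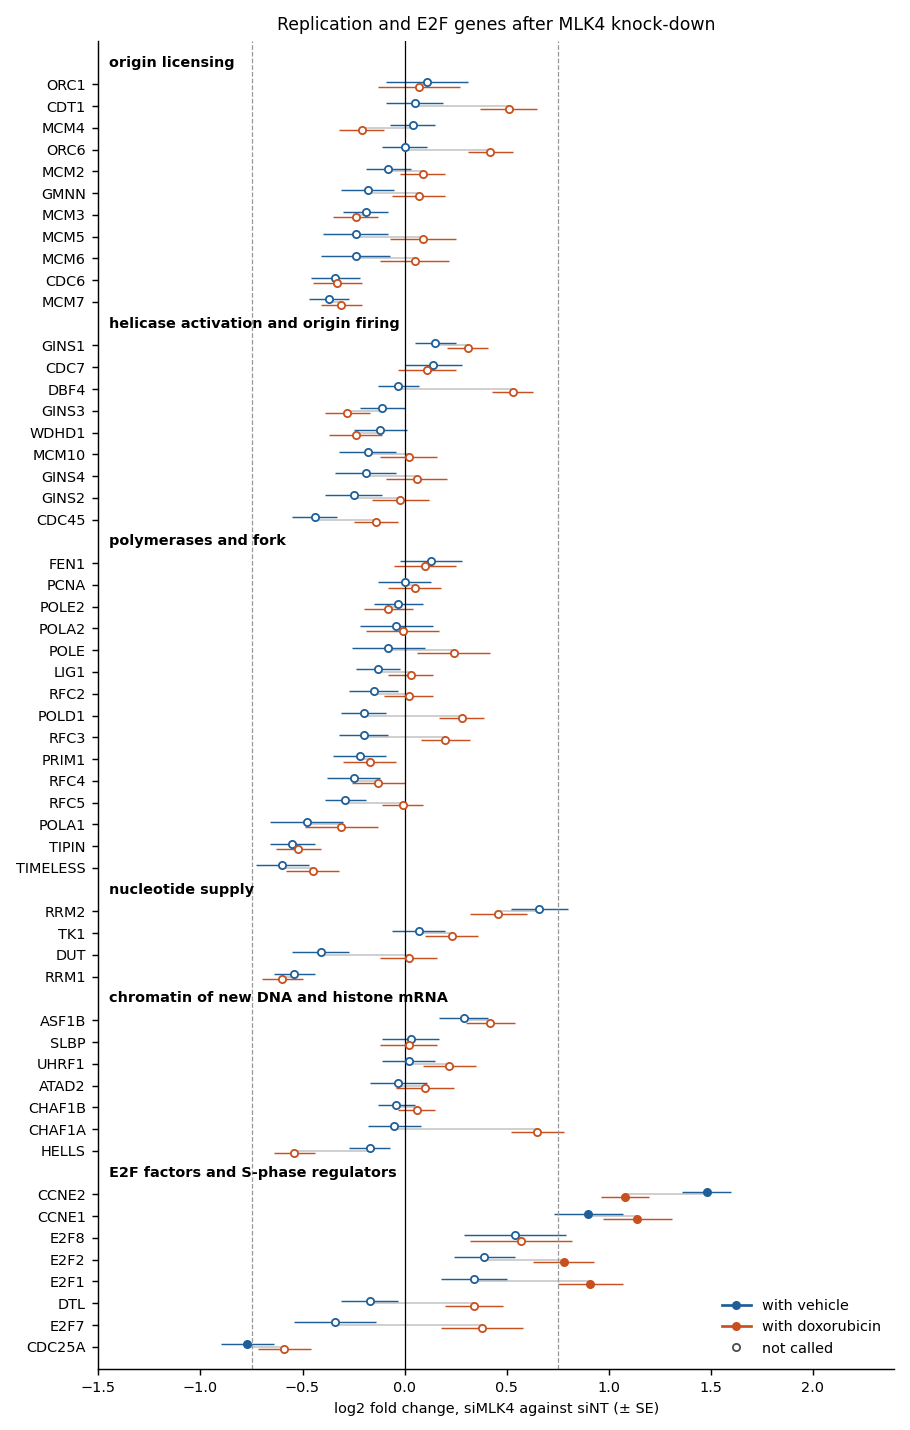
Log2 fold change of each of the 54 members in siMLK4 against siNT cells (x axis, ± SE) with vehicle (blue) and with doxorubicin (orange), by role. Filled points passed the call rule, and they all lie among the E2F factors and S-phase regulators.

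CCNE2 had 1375, 1464 and 1129 normalized reads in siMLK4 vehicle cells beside 369.9, 509.7 and 440.1 in siNT vehicle cells. Every siMLK4 library was above every siNT library, also with doxorubicin, where siMLK4 cells had 1709, 1835 and 1671 beside 781, 828 and 768. The log2 fold changes were 1.48 ± 0.12 (adjusted p = 2.1e-06) and 1.08 ± 0.12 (adjusted p = 3.7e-05). For CCNE1 they were 0.90 ± 0.17 (adjusted p = 0.0016) and 1.14 ± 0.17 (adjusted p = 3.2e-04), with all siMLK4 libraries above all siNT libraries in both conditions. The vehicle call of CCNE1 was lost when only the groups compared were fitted (adjusted p = 0.013) and without siMLK4 vehicle library 2.

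CDC25A had 394.8, 492.2 and 328.7 normalized reads in siMLK4 vehicle cells and 814, 837 and 779 with doxorubicin, below the siNT libraries of the same treatment in each case. The log2 fold changes were −0.77 ± 0.13 (adjusted p = 6.0e-04) and −0.59 ± 0.13 (adjusted p = 0.0039), so that its call held in vehicle cells only, and the interaction of 0.18 ± 0.18 (adjusted p = 0.72) did not separate them. The vehicle call was close to the threshold and was lost with library totals (−0.64), with upper-quartile scaling (−0.69), with only the groups compared (adjusted p = 0.018), and without siNT vehicle library 2 (−0.69) or siMLK4 vehicle library 3 (−0.65).

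E2F1 and E2F2 were higher in siMLK4 than in siNT cells with doxorubicin, at 0.91 ± 0.16 (adjusted p = 0.0010) and 0.78 ± 0.15 (adjusted p = 0.0020). Their siMLK4 libraries lay above the siNT libraries without overlap. With vehicle the groups of both genes overlapped, at 0.34 ± 0.16 (adjusted p = 0.14) and 0.39 ± 0.15 (adjusted p = 0.072). With the replicate number as a block, E2F2 with vehicle had an adjusted p of 0.015 (limma), still under the fold threshold. The E2F2 call was lost without siNT doxorubicin library 3 (0.64) and without siMLK4 doxorubicin library 1 or 2 (0.78 at an adjusted p of 0.011, and 0.68).

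Below the fold threshold, several members differed between siMLK4 and siNT cells in both conditions at an adjusted p under 0.05. RRM2, the regulated subunit of ribonucleotide reductase, stood at 0.66 ± 0.14 with vehicle and 0.46 ± 0.14 with doxorubicin, and its partner RRM1 at −0.54 ± 0.10 and −0.60 ± 0.10. With vehicle RRM2 passed the call rule with library totals (0.80) and with upper-quartile scaling (0.75). RRM1 had 1610.1, 1646 and 1474 normalized reads in siMLK4 vehicle cells beside 2504, 2306 and 2134 in siNT vehicle cells, and RRM2 had 10149, 10805 and 8999 beside 6205, 6617 and 6022. The 2 subunits therefore stood apart from siNT cells in opposite directions, each without overlap. The fork partners TIPIN and TIMELESS were both lower, at −0.55 ± 0.11 and −0.60 ± 0.13 with vehicle and −0.52 ± 0.11 and −0.45 ± 0.13 with doxorubicin. MCM7 was lower at −0.37 ± 0.10 and −0.31 ± 0.10. With doxorubicin CHAF1A (0.65 ± 0.13), DBF4 (0.53 ± 0.10), CDT1 (0.51 ± 0.14), ORC6 (0.42 ± 0.11), ASF1B (0.42 ± 0.12) and GINS1 (0.31 ± 0.10) were higher and HELLS (−0.54 ± 0.10) was lower at that adjusted p. With the replicate number as a block GINS1 no longer passed it (adjusted p = 0.057), and DTL, at 0.34 ± 0.14, did (0.047 in place of 0.084). With vehicle CDC45 (−0.44 ± 0.11), DUT (−0.41 ± 0.14) and CDC6 (−0.34 ± 0.12) were lower. With the block DUT no longer passed (adjusted p = 0.061 in place of 0.041, limma). ATAD2 and PCNA, among the most abundant members, stood at −0.03 ± 0.14 and 0.00 ± 0.13 with vehicle.

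Genes near these members in the cell cycle, were counted in the same way. Of 42 measured other replication genes, 1 rose and 2 fell with doxorubicin in siNT cells and 2 rose and 1 fell in siMLK4 cells, with medians of −0.04 and 0.11. A single gene of this list is 2.38% of it, so each of these shares lay under the 10.6% to 12.6% of all genes called in a direction. The checkpoint mediator CLSPN rose in both, by 0.90 ± 0.11 and 0.81 ± 0.11, and RPA2, a subunit of the single-strand binding complex, stood at 0.68 ± 0.09 and rose by 1.05 ± 0.09. The deaminase DCTD fell in both, at −0.98 ± 0.12 and −1.23 ± 0.12, and RRM2B, the damage-induced reductase subunit, fell at −0.87 ± 0.13 in siNT cells. With the knock-down this list had 0 higher and 1 lower with vehicle (RRM2B, −0.79 ± 0.13), and 2 higher (RECQL4 at 0.91 and TONSL at 0.88) and 1 lower (DCTD at −0.80) with doxorubicin, where 2.51% and 3.14% of all genes were called higher and lower with vehicle and 2.66% and 2.93% with doxorubicin.

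Of 25 measured genes of the RB pathway and E2F regulators, 3 rose and 1 fell with doxorubicin in siNT cells, and 7 rose and none fell in siMLK4 cells. The share that rose was 12% beside 12.1% of all genes in siNT cells and 28% beside 12.6% in siMLK4 cells. The shares that fell were 4% and 0, beside 10.6% of all genes in each. The CDK4 inhibitor CDKN2C rose by 1.64 ± 0.19 and 1.76 ± 0.19, and the CDK2 inhibitor CDKN1A by 1.06 ± 0.16 and 1.69 ± 0.16. In siNT cells CDKN1C was also called higher (0.84 ± 0.14). The other genes called higher in siMLK4 cells were CDKN2D (0.93 ± 0.14), E2F5 (0.91 ± 0.12), E2F3 (0.82 ± 0.15), CCND3 (0.82 ± 0.12) and LIN54 (0.81 ± 0.18). SKP2, which sends the CDK inhibitor p27 for destruction, fell at −1.5 ± 0.11 in siNT cells and stood at −0.70 ± 0.11 in siMLK4 cells. RB1 itself stood at 0.08 (adjusted p = 0.73) and 0.39 (adjusted p = 0.074). The knock-down moved 1 gene up and 1 down with vehicle (CDKN2C at 1.02 ± 0.19 and CDKN1A at −0.84 ± 0.16) and 2 up with doxorubicin (CDKN2C at 1.14 ± 0.19 and CDKN2D at 0.87 ± 0.14), where 4% and 8% of the list rose beside 2.51% and 2.66% of all genes. CDKN2C had 182 ± 21 and 690.5 ± 204 normalized reads (SD, n = 3) in siNT cells with vehicle and doxorubicin, and 419 ± 38 and 1566 ± 321 in siMLK4 cells.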

How the data were processed

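By the study's methods and the submitters' processing notes, the authors trimmed reads (Trimmomatic 0.39), mapped them (HISAT2, version not given), removed optical duplicates, counted reads by gene and strand (HTSeq 0.6.0) and used DESeq2 1.26.0, with genes of few reads left out by a rule not given in the sources used here. The methods name GRCh38 and the notes hg19, so coordinates here come from GENCODE release 44 on GRCh38, which annotated 16957 of 17013 identifiers. The deposited values are on a log2 scale, read from the values to be variance-stabilized. Inverting the transformation gave whole reads (tolerance 0.05 reads) for 100% of values in each library and size factors of 0.852 to 1.199.

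The log2 values were fitted with limma 3.58.1 (R 4.3.3; variance trend, 4 group means over 12 libraries, Benjamini-Hochberg adjustment over all genes). A call needed an adjusted p below 0.01 with a log2 fold change beyond 0.75 in size. P-values measure the spread between libraries, which were transfected in triplicate and may share a culture. Python 3.11.15 made summaries and figures. The members, lists, roles and tests were chosen with earlier results of these data known. Values in every library are given for the called member with the largest doxorubicin change of each role in siNT cells, for the 3 largest called changes in each direction of each contrast whose groups do not overlap and, for the interaction, the 3 smallest p-values. Other genes, and GINS1, MCM2, RRM1 and RRM2 for library values, were chosen after their values were seen. Deviations of same-numbered libraries from their group means were correlated over all genes. The correlations were 0.46, 0.11 and 0.20 for doxorubicin in siNT cells and −0.08, 0.18 and 0.34 in siMLK4 cells. For the knock-down they were −0.72, 0.32 and −0.52 with vehicle and 0.19, 0.52 and 0.56 with doxorubicin. The signs were thus mixed, and the replicate number was used as a block in an alternative fit only. Other settings were library totals and upper-quartile scaling, fits of only the groups compared, a filter of 10 reads in every library (13295 genes), limma-voom, log2(normalized reads + 1), no variance trend, a threshold without fold, and leaving out each library. The code was tested on simulated data. Per-length levels (TPM) were computed from the recovered reads and summed exon lengths.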

Additional observations from a re-analysis of the deposited data

Results flagged for a closer look

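For 3 genes of the lists beside the members the responses to doxorubicin differed between siMLK4 and siNT cells at an adjusted p under 0.05 for the interaction (limma, Benjamini-Hochberg). They were singled out after their values were seen, and none was a call at an adjusted p under 0.01. PLK1 was at 1205, 1316 and 1269.7 normalized reads in siNT cells with vehicle, 479.9, 511 and 536 with doxorubicin, 1220.3, 1132 and 937 in siMLK4 vehicle cells and 849, 823 and 840.1 with both. Its interaction was 0.87 ± 0.15 on the log2 scale (SE; adjusted p = 0.012), with adjusted p-values from 0.012 to 0.060 over all 20 settings and the highest without siMLK4 doxorubicin library 1. SKP2 had 2043, 2507 and 2093 in siNT vehicle cells, 740.1, 709 and 786 with doxorubicin, 1648, 1752 and 1443 in siMLK4 vehicle cells and 941, 979.8 and 994 with both. Its interaction was 0.80 ± 0.15 (adjusted p = 0.020), and its adjusted p ranged from 0.020 to 0.069, over 0.05 without siNT doxorubicin library 1 or 2 and without siMLK4 doxorubicin library 1 or 2. The basal keratin KRT5 went the other way. It was at 17185, 22489 and 22960 in siNT vehicle cells, 7659, 8316 and 10476 with doxorubicin, 33618, 31749 and 31405 in siMLK4 vehicle cells and 6996, 5955 and 8155 with both. Its interaction was −0.96 ± 0.22 (adjusted p = 0.047), and its adjusted p ranged from 0.029 to 0.13 and was under 0.05 in 8 of the 20 settings. The cause was not tested for any of them. Among the 54 replication and E2F genes none met this rule.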

How the results depend on the processing

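The 10 members called for doxorubicin in siNT cells became 16 with library totals and 30 at an adjusted p under 0.05 with no fold threshold. The latter rule gave 32 in place of 14 in siMLK4 cells, 11 in place of 3 for the knock-down with vehicle and 17 in place of 4 with doxorubicin, and only the groups compared gave 1 in place of 3 for the knock-down with vehicle. Without 1 library the counts ranged from 8 to 12, 12 to 15, 2 to 3 and 3 to 4, and the interaction had 0. With the replicate block the counts were 10, 14, 3, 4 and 0, and no call of a member was lost or gained. At an adjusted p under 0.05 with no fold threshold the block gave 29, 31, 11, 17 and 0 in place of 30, 32, 11, 17 and 0, with 5 members lost and 3 gained. Over all 54 members and settings, calls were lost 22 times and gained 38 times. Of the 11 members chosen by rule, 1089 values under other settings included 15 lost calls, 6 gained calls and 18 changes of sign, none of them of a called value. With library totals the latter were CHAF1A (0.03 for doxorubicin in siNT cells and 0.09 for the knock-down with vehicle), DBF4 (0.11, knock-down with vehicle), POLD1 (0.03, doxorubicin in siMLK4 cells) and TIPIN (−0.04, interaction). With upper-quartile scaling they were CHAF1A (0.04), DBF4 (0.06) and TIPIN (−0.05), and with limma-voom or log2(normalized reads + 1) TIPIN (−0.03). Without 1 library, they were CHAF1A and DBF4 (−0.15 to 0.05 and −0.08 to 0.05, knock-down with vehicle), GINS4 (−0.03 to 0.15, knock-down with doxorubicin) and TIPIN (−0.04 to 0.11, interaction). The share of promoters with an E2F word was 54.2% in the shorter window too. With 3 libraries a group, differences under the fold threshold and interactions rest on few values.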

Other observations

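Mitotic genes peak after replication is complete. Of 40 mitotic genes, 5 fell (12.5%, beside 10.6% of all genes called lower) and none rose (beside 12.1% called higher) with doxorubicin in siNT cells (median −0.15). These were the kinase PLK1 (−1.23 ± 0.11, SE), the centromeric histone CENPA (−0.98 ± 0.14), the checkpoint gene MAD2L1 (−0.92) and the cyclins CCNA2 (−0.88) and CCNB1 (−0.76 ± 0.11). In siMLK4 cells 1 rose, the phosphatase CDC25C (0.82), and none fell (median 0.13), 2.5% and 0 beside 12.6% and 10.6% of all genes. With the knock-down and vehicle none was called. With doxorubicin the kinesin KIF20A was called higher in siMLK4 cells (0.80), and at an adjusted p under 0.05 (limma) 16 of 40 were higher and 0 lower, beside 24.8% of all genes in either direction.

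Of 24 recombination and checkpoint genes, 1 fell in siNT cells with doxorubicin (FANCD2, −0.76), and in siMLK4 cells FANCM (0.77) and XRCC3 (0.76) rose and FANCD2 fell (−0.82). The shares that fell (4.17% in each background) and rose (0 and 8.33%) lay under those of all genes, 10.6% lower in each and 12.1% and 12.6% higher. The kinase WEE1, which holds CDK1 and CDK2 inactive, was the only gene of the list called for the knock-down, 4.17% beside 2.51% and 2.66% of all genes called higher. It had 1586 ± 69 normalized reads (SD, n = 3) in siNT vehicle cells and 3211 ± 190 in siMLK4 vehicle cells, and its log2 fold change was 0.99 ± 0.09 (SE; adjusted p = 6.4e-06) with vehicle and 1.34 ± 0.09 (adjusted p = 8.0e-07) with doxorubicin.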
